A study of Mus musculus with 4 samples.

Results

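The genes of oxidative phosphorylation code for the protein complexes of the inner mitochondrial membrane that carry electrons to oxygen and use the resulting proton gradient to make ATP. The members were the nuclear protein-coding genes of the GENCODE M1 annotation whose symbols start with Nduf, Uqcr, Cox4 to Cox8 or Atp5, together with Sdha, Sdhb, Sdhc, Sdhd and Cyc1. This rule gave 93 of the 22380 protein-coding genes, by symbol alone. Of these, 82 are subunits of complexes I to V, and the 11 others are assembly factors, related genes and neighbours that carry a similar symbol.

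The data were 2 lists of ChIP-Seq peaks from E14 mouse embryonic stem cells (ESCs). Bio-Myc, which is Myc with an N-terminal tag that the bacterial ligase BirA biotinylates, was purified on streptavidin beads from 1 stable clone in which the EF1α promoter drives the tagged Myc on top of the endogenous protein. Max, with which Myc dimerizes on DNA, was precipitated with an antibody from parental wild-type E14 cells. A mock ChIP on streptavidin and an IgG ChIP, labelled as parental wild type, served as the controls of the peak caller and were not analysed on their own. The methods differ from this label for the mock ChIP and name BirA-ES cells that carry no tag. All cells were grown with LIF, and no drug or differentiation treatment is given for these samples. Each ChIP is 1 library, so no value below has an error between cultures. The lists hold no expression values, so the labelled cell type could not be checked against its markers.

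Complex I (NADH dehydrogenase) and complex II (succinate dehydrogenase) pass electrons to coenzyme Q, complex III (cytochrome bc1) passes them on to cytochrome c, and complex IV (cytochrome c oxidase) transfers them to oxygen. Complex V (ATP synthase) consists of the F1 head, which makes ATP, the turning ring of c subunits in the membrane, and the stalks that join them. A few subunits are encoded by the mitochondrial genome and all others by nuclear genes, so one machine depends on many scattered promoters. Myc is known as a regulator of growth, ribosome production and mitochondrial biogenesis, and Myc/Max dimers bind the E-Box CACGTG.

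Binding was assigned to a gene by a peak within 1 kb of any of its annotated transcription start sites (TSSs). A peak's score is 10 times the negative log10 of its p-value in MACS, so that 80 is the limit of 1e-08 used for both lists. The scores depend on the number of reads, which is unknown here, and were therefore ranked only within their own list. The 95% Wilson intervals given with the shares express counting error alone, since genes are no replicates of a condition.

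The sequences behind the results are shown first. Across the peaks of the members 20 different copies of CACGTG were found in the mm9 sequence. The 10 below lie under Bio-Myc peaks assigned to genes of the ATP synthase and of the respiratory chain. Each is given 5′ to 3′ on the strand of its gene with 12 bases to either side, and the capitals mark the E-Box.
Atp5g1, at the TSS, chr11:95936972-95937001, minus strand: agggactccgaaCACGTGggtgggggagct
Atp5g1, in the transcribed part, chr11:95936806-95936835, minus strand: cgtgggttgtgcCACGTGgagcaccatttg
Atp5g1, upstream, chr11:95937297-95937326, minus strand: tggagcccttatCACGTGtcagcttgcgtc
Atp5g3, chr2:73749604-73749633, minus strand: acccctgcctggCACGTGcaaggagcgagg
Atp5f1, chr3:105762413-105762442, minus strand: ggagggaccgcaCACGTGgtgtacctctgc
Atp5l, chr9:44728955-44728984, minus strand: ctcaggattcttCACGTGttatcgcgcctc
Ndufa7, upstream of the outermost TSS, chr17:33961433-33961462, plus strand: gcggagaggagtCACGTGagcaggggatgc
Ndufs1, chr1:63223888-63223917, minus strand: ccgagcccgcgcCACGTGgccccggccccc
Ndufa5, chr6:24477932-24477961, minus strand: tatgcattcacaCACGTGgagggaaagcat
Uqcrq, chr11:53244138-53244167, minus strand: gcgcggatacggCACGTGatctcctacagc

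Atp5g1 was the member with the most copies, 3 under both of its peaks. Their middles lie at -3, 74 and -328 bp from the nearest annotated TSS, where negative values are upstream. The E-Box of Atp5f1, at -234 bp, was close to both peak centres, with 49 bp to that of Bio-Myc and 61 bp to that of Max. In Ndufa7 the same distances were 69 bp and 19 bp, and in Uqcrq 59 bp and 79 bp. At Atp5g3, by contrast, the distance to the Bio-Myc centre was 585 bp, and the E-Box lay just inside the upstream edge of the peak.

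Atp5g1, Atp5g2 and Atp5g3 code for precursors that are processed to the same mature c subunit, and both proteins were found at all 3. Their promoters are set side by side because they serve the same protein with different sequences. Each runs from 250 bases before to 50 after the outermost TSS in mm9, and the capitals mark CACGTG, and in Atp5g2 the NRF1 motif GCGCATGCG, whose matches on both strands overlap in 1 stretch.
Atp5g1, chr11:95936935-95937234, minus strand: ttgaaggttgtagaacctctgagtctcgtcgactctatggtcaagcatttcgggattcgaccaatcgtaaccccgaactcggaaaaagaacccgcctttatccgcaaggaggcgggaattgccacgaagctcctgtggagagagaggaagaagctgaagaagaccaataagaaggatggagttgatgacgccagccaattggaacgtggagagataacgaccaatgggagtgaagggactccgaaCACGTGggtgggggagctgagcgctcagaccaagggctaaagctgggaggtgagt
Atp5g2, chr15:102501429-102501728, minus strand: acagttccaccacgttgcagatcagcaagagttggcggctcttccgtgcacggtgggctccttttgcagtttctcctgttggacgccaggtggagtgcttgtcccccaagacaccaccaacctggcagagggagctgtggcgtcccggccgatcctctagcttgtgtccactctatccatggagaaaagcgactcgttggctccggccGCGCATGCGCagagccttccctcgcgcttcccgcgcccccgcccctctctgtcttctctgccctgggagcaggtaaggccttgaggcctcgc
Atp5g3, chr2:73749334-73749633, minus strand: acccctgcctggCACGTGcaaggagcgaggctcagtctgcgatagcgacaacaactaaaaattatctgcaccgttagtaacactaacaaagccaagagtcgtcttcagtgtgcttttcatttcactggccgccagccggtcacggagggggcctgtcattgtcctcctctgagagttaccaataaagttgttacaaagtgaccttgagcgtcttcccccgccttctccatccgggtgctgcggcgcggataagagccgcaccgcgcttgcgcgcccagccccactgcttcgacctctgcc

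No CACGTG lay under either peak of Atp5g2, although its scores were the highest of the 3 genes in both lists. The Bio-Myc scores were 207 for Atp5g1, 298 for Atp5g2 and 90.4 for Atp5g3, and the Max scores were 358, 624 and 193. The order of the 3 genes by score was thus the same in both ChIPs, and it did not follow the number of E-Boxes.

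Bio-Myc peaks lay at 35 of the 93 members, which is 37.6% (28.5 to 47.8%), whereas 14.6% of all protein-coding genes had one. Max peaks lay at 51 members, 54.8% (44.7 to 64.6%), beside 34.8% of all genes. Both peaks were found at 28 members, 30.1% (21.7 to 40.1%), beside 12.7% of all genes. Another 23 members had only a Max peak, 7 had only a Bio-Myc peak and 35 had neither. Many member promoters are rich in CpG, like those of most housekeeping genes. Among the 60 members with a CpG-rich promoter, 41.7% had a Bio-Myc peak (30.1 to 54.3%), beside 27.0% of the 9816 CpG-rich protein-coding genes. For Max the shares were 63.3% and 61.5%, so that for promoters of this kind the members' Max share was near the background. For both peaks they were 36.7% and 24.0%. The part of CpG content in the shares was not tested beyond this comparison.

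Among the complexes, complex V, the ATP synthase, had the highest share in both lists. Of its 15 subunit genes, 12 had a Bio-Myc peak (80.0%, 54.8 to 93.0%) and 13 a Max peak (86.7%, 62.1 to 96.3%). Of the 36 genes of complex I, 9 had a Bio-Myc peak (25.0%, 13.8 to 41.1%) and 16 a Max peak (44.4%, 29.5 to 60.4%). None of the 4 genes of complex II had a Bio-Myc peak, with an upper Wilson bound of 49.0% for so few genes, and 2 had a Max peak. Complex III had 5 genes of 9 with a Bio-Myc peak and 5 with a Max peak (each 55.6%, 26.7 to 81.1%). Complex IV had 5 of 18 (27.8%, 12.5 to 50.9%) and 8 of 18 (44.4%, 24.6 to 66.3%). In complexes I to IV together, 19 of 67 genes had a Bio-Myc peak (28.4%, 19.0 to 40.1%). For Max the count was 31 of 67 (46.3%, 34.9 to 58.1%). The differences between complexes were not tested, because the genes of a complex are a whole and no sample.

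**Figure D1:**
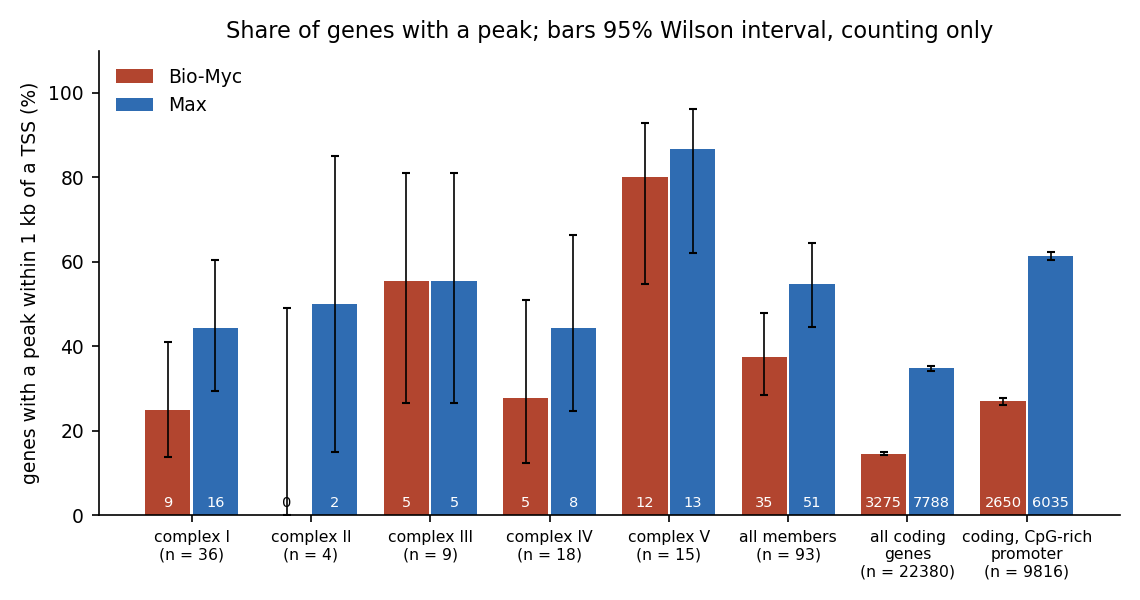
Share of genes with a Bio-Myc peak (red) or a Max peak (blue) within 1 kb of a TSS, in percent, for complexes I to V, all 93 members, all protein-coding genes and those with a CpG-rich promoter. Black lines are 95% Wilson intervals, which cover counting only, and the figures inside the bars are numbers of genes. Complex V stands at 80.0% and 86.7%, and complex II has no Bio-Myc peak.

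CpG-rich promoters and annotated TSSs were also more numerous per gene in complex V. Its genes had a median of 5 TSSs, beside 2 in complexes I to IV. Within genes of 5 or more TSSs, 7 of 8 genes of complex V had a Bio-Myc peak, 2 of 14 genes of complexes I to IV, and 24.5% of all protein-coding genes. With 2 to 4 TSSs the counts were 3 of 5 and 9 of 26, beside 15.7% of all genes. Atp5g2 and Atp5l, the genes of complex V with 1 TSS, both had a Bio-Myc peak, as did 8 of 27 genes of complexes I to IV and 8.72% of all protein-coding genes with 1 TSS. Of genes with a CpG-rich promoter, 11 of 13 in complex V had a Bio-Myc peak (84.6%). In complexes I to IV 12 of 42 had one (28.6%), near the 27.0% of all protein-coding genes with such a promoter. For Max the counts were 11 of 13 (84.6%) and 22 of 42 (52.4%), beside 61.5% of all such genes. The classes are small, with 2 genes of complex V in the smallest, and the part of TSS number and CpG content in the share of complex V was not tested.

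In the F1 head of the ATP synthase, 5 of 5 genes had both peaks. Atp5a1 and Atp5b, which code for the α subunit and the catalytic β subunit, had Bio-Myc scores of 178 and 144 and Max scores of 236 and 237. Atp5c1, the γ subunit that turns inside the head, had 137 and 232. Atp5d and Atp5e code for the δ and ε subunits of the central stalk. Atp5e had the highest Bio-Myc score of the head, 264, with 376 for Max, and Atp5d the lowest, 115, with 254 for Max. The peaks of Atp5d did not meet. Its Bio-Myc peak covered an internal TSS of the gene, 352 bp from the nearer of its Max peaks, and the stronger Max peak lay over the outermost TSS. Atp5d was also the only member with more than 1 Max peak.

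The stalk that holds the head in place had 3 of 4 genes with both peaks. Atp5f1, the b subunit of this stalk, had a Bio-Myc score of 287, the second highest of the complex, and a Max score of 216. Both peaks of Atp5f1 were centred nearer to a TSS of Wdr77. Atp5o, the oligomycin sensitivity protein at the top of the stalk, had 150 and 125, and Atp5j, coupling factor 6, had 113 and 265. Atp5h had neither, and its nearest Bio-Myc peak was 22850 bp away. In the membrane part beside the ring, Atp5l, the g subunit, had both peaks (145 and 401). Atp5j2, the f subunit, had a Max peak of 228 alone, and Atp5k, the e subunit, had neither. The 3 genes of the complex without a Bio-Myc peak were thus all outside the head and the ring. The parts are small, with Wilson intervals of 56.6 to 100% for the head, 43.9 to 100% for the ring and 30.1 to 95.4% for the stalk. The difference between the parts was not tested. Even the peaks of the ATP synthase were of middle rank in the lists. Their median Bio-Myc score was 147, with a median rank in the top 41.3% of the list, and their median Max score was 237, with a median rank in the top 30.3%.

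**Figure D2:**
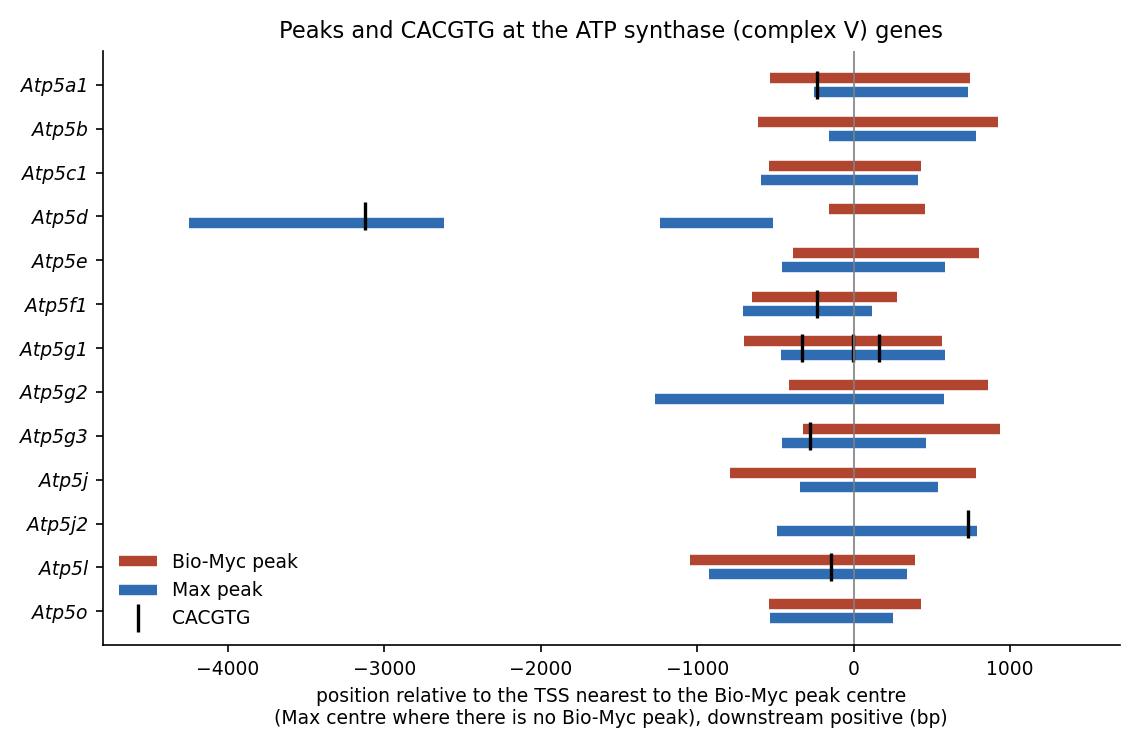
Extent of the Bio-Myc peaks (red) and Max peaks (blue) at the 13 complex V genes with a peak, in bp from 1 TSS per gene, with downstream to the right. This is the TSS nearest to the centre of the Bio-Myc peak, or of the Max peak at Atp5j2, which has no Bio-Myc peak. Black ticks are copies of CACGTG under the peaks. The peaks of 11 of the 12 genes with both overlap across the TSS, and those of Atp5d stand apart.

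Complex I holds the most genes and showed the widest range of scores. Its nuclear core subunits carry the flavin and the iron-sulfur clusters along which electrons run. Of these 7, Ndufs1, the largest, had both peaks, with a Bio-Myc score of 217 and a Max score of 300. Ndufs3 had a Bio-Myc peak of 103 alone. Ndufs7, Ndufs8, Ndufv1 and Ndufv2 had neither. Among the 29 accessory subunits, 7 were bound by Bio-Myc and 15 by Max. Ndufa7 had the highest Bio-Myc score of all members, 339, and a Max score of 240. Ndufa5 followed with 167 and 187, Ndufs6 with 142 and 101, and Ndufa10 with 137 and 197. Ndufs4, whose loss causes a Leigh-like disease in mice, had a Bio-Myc peak of 125 alone. Ndufa11 (115 and 198) and Ndufa13 (110 and 1772) complete the list. Ndufa13, also known as a cell death regulator under the name GRIM-19, thus had a modest Bio-Myc peak under the highest Max score of all members. It lies on chromosome 8, which held 1357 of the 11570 Max peaks but 214 of the 3962 Bio-Myc peaks, and the part of this excess in its Max score was not tested. The other members on chromosome 8 are Cox4i1, Cox4nb and Ndufb7.

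A Max peak without a Bio-Myc peak was seen at 9 complex I genes, all accessory. Among the lowest Max scores of such members were those of Ndufb10 (92.2), Ndufb2 (96.2) and Ndufab1 (107), the last of which codes for the mitochondrial acyl carrier protein. Ndufa6, Ndufb5, Ndufb6, Ndufb8, Ndufc2 and Ndufv3 lay between 109 and 168. The accessory subunits with neither peak were Ndufa1, Ndufa2, Ndufa3, Ndufa8, Ndufa9, Ndufa12, Ndufb3, Ndufb4, Ndufb7, Ndufb9, Ndufb11, Ndufc1 and Ndufs5.

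Complex II, which also belongs to the citric acid cycle, had no Bio-Myc peak in any of its genes. Sdha, the flavoprotein that oxidizes succinate, had a Max peak of 378, the second highest score among the members with Max alone. Sdhd, a membrane anchor, had a Max peak of 165. Sdhb, the iron-sulfur subunit, and Sdhc, the other anchor, had neither.

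In complex III the Bio-Myc peaks were all weak. The Rieske iron-sulfur protein gene Uqcrfs1 had a Bio-Myc score of 85.6 and a Max score of 87.2, and Cyc1, cytochrome c1, had a Bio-Myc score of 90.8 with no Max peak. Of the small subunits, Uqcrq had 80.1 and 195, Uqcr10 had 109 and 131, and Uqcr11 had a Bio-Myc peak of 93.2 alone. Uqcrq was thus at the limit of the Bio-Myc list, in its lowest part at the top 99.8%. The core protein genes Uqcrc1 and Uqcrc2 had only Max peaks, of 103 and 163. Uqcrb and Uqcrh, the hinge protein that contacts cytochrome c, had neither.

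Complex IV has several subunits in a general and a tissue form, and most pairs of forms differed in their peaks. Cox5a, which has a single form, had the highest scores of the complex, 258 for Bio-Myc and 740 for Max. Its partner Cox5b had a Max peak of 251 alone. Cox4i1, the general form of subunit 4, had a Max peak of 333, which it shares with the divergent neighbour Cox4nb, and Cox4i2, the form of the lung, had one of 110. Cox6a1 had a Bio-Myc peak of 103 alone, and its heart and muscle form Cox6a2 had none. Cox6b2, the testis form, had a Bio-Myc peak of 91.5 that lay 561 bp inside the gene and a Max peak of 118 at the TSS, 254 bp from it, whereas the general form Cox6b1 had neither. Cox7a1, the heart and muscle form, had the lowest Max score of all members, 86.7, and the general form Cox7a2 had no peak. Cox7b had a Bio-Myc peak of 157 alone and Cox7b2 none. Cox8a had 117 for Bio-Myc and 86.7 for Max, and Cox8b and Cox8c none. Of the pairs, both forms of subunit 4 had Max alone, and in the others the bound form was the general one in some and the tissue one in others. Ndufa4, long counted with complex I and now placed in complex IV, had a Max peak of 327, and Cox6c and Cox7c had neither.

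**Figure D3:**
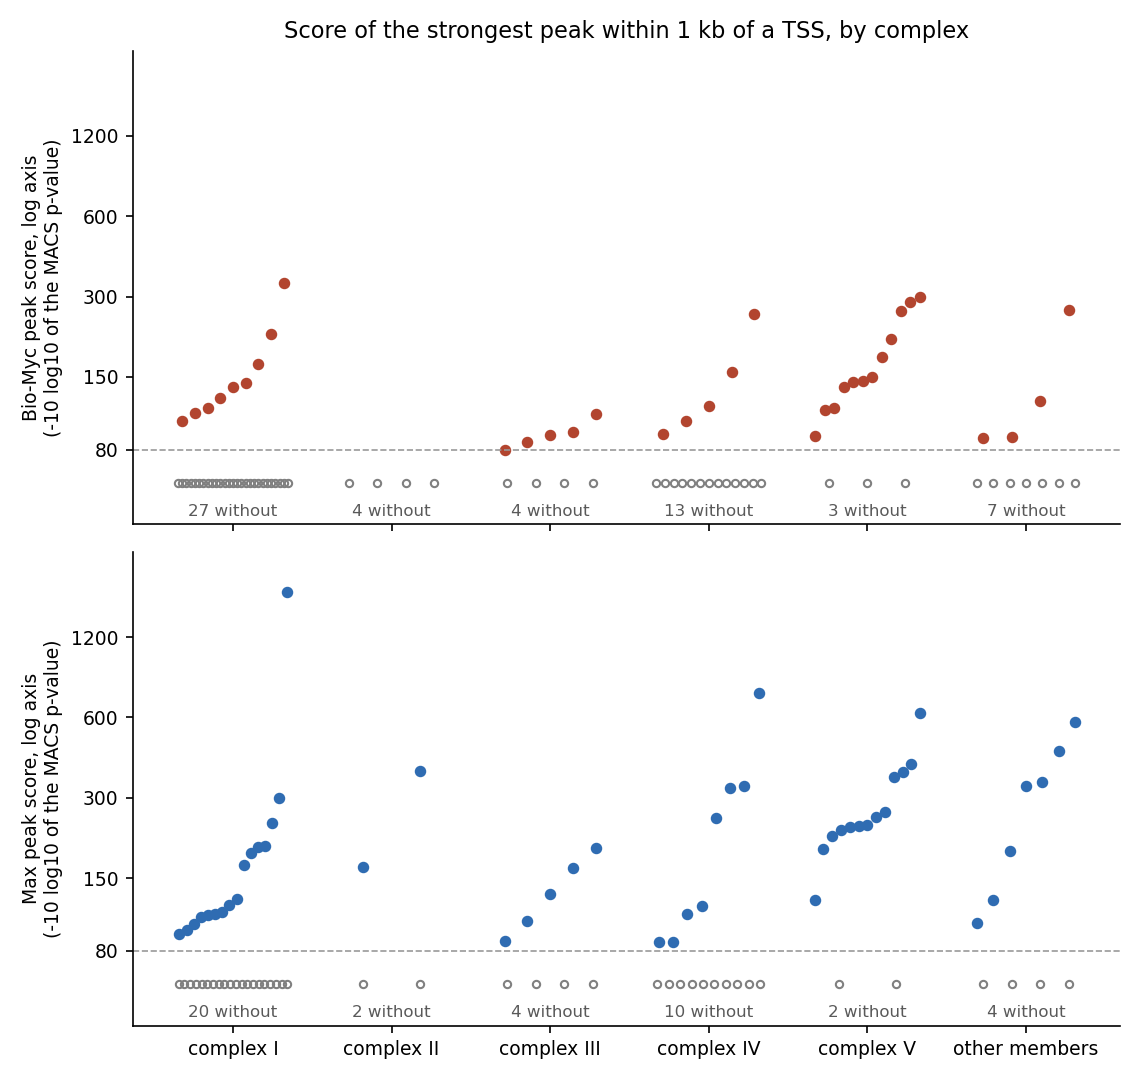
Score of the strongest Bio-Myc peak (upper panel) and Max peak (lower panel) of each member on a log axis, where the score is 10 times the negative log10 of its p-value in MACS. Filled points are genes with a peak within 1 kb of a TSS, open circles are those without (no score), and the dashed line is the limit of 80. Bio-Myc scores reach 339 (Ndufa7, in a peak centred nearer to a TSS of Rps28), and the highest Max score, 1772, is that of Ndufa13.

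Of the members that are no subunits, 4 of 11 were bound by Bio-Myc and 7 by Max. The complex I assembly factors made up 3 of these Bio-Myc peaks, with scores of 268 for Ndufaf4, 122 for Ndufaf2 and 89.7 for Ndufaf1. Their Max scores were 345 for Ndufaf4 and 102 for Ndufaf2, with no Max peak at Ndufaf1. Ndufaf3 had the highest Max score among the members with Max alone, 448, and its nearest Bio-Myc peak was 2512 bp from its TSS. Atp5s, which codes for coupling factor B, had a Bio-Myc peak of 88.9 that ended 34 bp short of its TSS, and a Max peak of 575. Atp5sl and Cox7a2l, a factor of respiratory supercomplexes, had Max peaks of 124 and 190. Ndufa4l2, Atp5l-ps1 and a second gene record under the name Ndufb8 had neither. Ndufa4l2 was the member nearest to the limit of the window, with a Max peak of 152 at 1110 bp from its TSS.

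The peaks at members sat on the TSS. Of the 51 strongest Max peaks, 51 covered a TSS of the gene, and of the 35 Bio-Myc peaks 33 did (94.3%). Among all protein-coding genes with a peak in the same window, these shares were 84.2% for Max and 88.0% for Bio-Myc. The 2 Bio-Myc peaks that covered none were those of Atp5s and Cox6b2. The centres of the Bio-Myc peaks lay at a median of 78 bp downstream of the nearest TSS (range -531 to 997 bp), or 173 bp downstream when only the outermost TSS of each gene was used. Those of the Max peaks lay at a median of -7 bp (-345 to 309 bp). In 26 of the 28 members with both, the peaks overlapped, by 583 to 1297 bp, and the exceptions were Atp5d and Cox6b2. By the annotation, 8 Bio-Myc centres fell in untranslated exons, 10 in coding exons, 3 in exons without either mark, 6 in introns and 8 upstream. For Max, counted per gene, 22 fell in untranslated exons, 6 in coding exons, 5 in introns and 18 upstream.

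The scores of the members were moderate within their lists. The median Bio-Myc score was 125, with a median rank in the top 52.7% of the list, beside 143 and the top 43.2% over all protein-coding genes with a Bio-Myc peak. For Max the medians were 195 and 196. With the limit set at a p-value of 1e-15, which is a score of 150, 11 of 93 members (11.8%) kept a Bio-Myc peak, beside 6.85% of all genes. These were 5 genes of complex V (33.3% of 15), 5 of complexes I to IV (7.46% of 67) and Ndufaf4. Among them, the Bio-Myc peaks at Atp5f1, Ndufa7 and Ndufs1 were centred nearer to a TSS of another gene. At this limit 12 of 15 genes of complex V (80.0%) and 15 of 67 of complexes I to IV (22.4%) had a Max peak, beside 22.6% of all genes. In the 28 members with both peaks, the Bio-Myc and Max scores had a Spearman correlation of 0.39, or 0.49 without Ndufa13 on chromosome 8, and that over 2832 protein-coding genes with both was 0.39. The points of each list share 1 library, and the correlation is given as a description.

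The E-Box was present under a minority of the peaks at members. CACGTG was found on either strand in 11 of the 35 Bio-Myc peaks (31.4%, 18.6 to 48.0%), beside 49.2% of the strongest Bio-Myc peaks of all protein-coding genes. Of the 51 members with a Max peak, 15 held CACGTG in their strongest peak (29.4%, 18.7 to 43.0%), beside 37.4%. The difference was not tested, and peaks at members were narrower than those at all genes for Bio-Myc, with median widths of 973 and 1074 bp, and of like width for Max, with 888 and 885 bp. The 11 genes were Atp5a1, Atp5f1, Atp5g1, Atp5g3, Atp5l, Ndufa5, Ndufa7, Ndufs1, Uqcrq, Ndufaf2 and Ndufaf4, and each of them also had a Max peak. None of the 7 members with Bio-Myc alone (Cox6a1, Cox7b, Cyc1, Ndufaf1, Ndufs3, Ndufs4 and Uqcr11) had the E-Box, with an upper Wilson bound of 35.4%. Of all protein-coding genes with Bio-Myc alone, 27.8% had it. In complex IV, 0 of 5 Bio-Myc peaks held CACGTG, among them that of Cox5a.

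Apart from the E-Box, the promoters were searched on both strands for motifs of factors known at genes of the respiratory chain. In the 300 bases around the outermost TSS, CACGTG was present in 9.68% of the members and 7.78% of all protein-coding genes. The variant CACGCG was present in 14.0% and 11.6%. Among CpG-rich promoters alone, the members lay below the background for both, with 8.33% beside 10.7% for CACGTG and 16.7% beside 21.2% for CACGCG. GCGCATGCG, the site of NRF1, a regulator of nuclear genes for mitochondria, was found in 8 members (8.60%), beside 2.10% of all genes. Among CpG-rich promoters it was found in 8.33% of the members, beside 3.59%. AAGATGGC, the core of the YY1 site, was found in 11 members (11.8%), beside 3.29% of all genes, and in 6 of the 60 CpG-rich members, beside 4.26%. CCGGAAGT, a site of GABP and other ETS factors, was found in 6.45%, beside 4.69% of all genes, but in 6.67% of the CpG-rich members, beside 7.29%. Matches of different motifs did not overlap in any member. The NRF1 motif was present in 6 of the 35 members with a Bio-Myc peak (Atp5g2, Atp5l, Cox6a1, Ndufa11, Ndufaf4 and Uqcr11) and in 2 of the 58 without (Atp5k and Uqcrc1). These 17.1% compare with 4.40% of all protein-coding genes with a Bio-Myc peak. The YY1 motif was present in 2 of 35 (5.71%, Atp5d and Ndufs4) and 9 of 58, beside 6.08% of all genes with a Bio-Myc peak. These counts are small and were not tested, and a match is a description and no evidence of binding.

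Several members share their promoter with another gene. A gene on the other strand started within 1 kb upstream of 23 members (24.7%), beside 7.15% of all protein-coding genes. Of these 23, 39.1% had a Bio-Myc peak, close to the 37.1% of the 70 others, and 65.2% had a Max peak, beside 51.4%. In 4 cases the centre of the Bio-Myc peak was nearer to a TSS of another gene. At Ndufa7 it was 9 bp from the TSS of Rps28, a ribosomal protein gene that starts 29 bp away on the other strand. At Ndufs1 it was 39 bp from Eef1b2, a translation elongation factor gene whose TSS is 3 bp from that of Ndufs1, and at -268 bp from the TSS of Ndufs1 itself. At Atp5f1 it was 43 bp from Wdr77. The peaks cannot be assigned to one gene of such a pair. When each peak was counted for the nearest gene alone, 31 members (33.3%) had a Bio-Myc peak, beside 12.6% of all genes. For Max, 8 members were nearer to another gene, among them Atp5j, whose Max peak was centred 18 bp from a TSS of Gabpa, the gene of the DNA-binding subunit of GABP.

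The members were also set beside the groups of genes most like them. The mitochondrial ribosome, which translates the subunits that are encoded in the mitochondrion, had Bio-Myc peaks at 33 of 77 genes (42.9%, 32.4 to 54.0%) and Max peaks at 56 (72.7%, 61.9 to 81.4%). Its Bio-Myc share was near that of the members, whose interval overlaps it. The cytosolic ribosomal protein genes stood far above both, with Bio-Myc peaks at 74 of 76 (97.4%, 90.9 to 99.3%) and a median score of 340. The genes of mitochondrial protein import had Bio-Myc peaks at 12 of 22 (54.5%, 34.7 to 73.1%). Complex V, at 80.0% (54.8 to 93.0%), lay between the members as a whole and the cytosolic ribosome. All protein-coding genes stood at 14.6% for Bio-Myc and 34.8% for Max. At the limit of 1e-15 the Bio-Myc share of complex V, 33.3%, was below the 40.9% of the import genes. The mitochondrial ribosome then had 19.5% and the cytosolic one 88.2%, beside 6.85% of all genes.

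**Figure D4:**
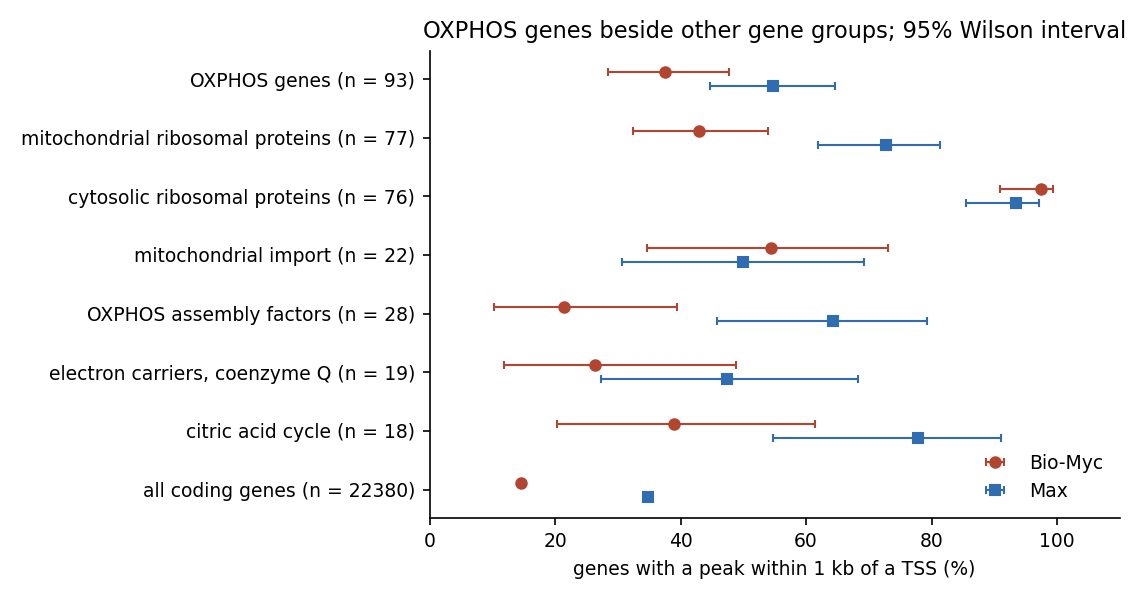
Share of genes with a Bio-Myc peak (red circles) or a Max peak (blue squares) within 1 kb of a TSS, in percent, for the oxidative phosphorylation (OXPHOS) genes and other gene groups, with 95% Wilson intervals for counting only. The members stand at 37.6% and 54.8%, the cytosolic ribosomal proteins at 97.4% and 93.4%.

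Genes that serve oxidative phosphorylation without being subunits were counted in 3 lists by function. Of 36 assembly factors outside the symbol rule, 28 were found in the annotation, and 6 of them had a Bio-Myc peak (21.4%, 10.2 to 39.5%) and 18 a Max peak (64.3%). Sco2, a copper chaperone of complex IV, had the highest Bio-Myc score of this list, 295. Surf1 and Atpaf2, assembly factors of complexes IV and V, each had 180. Of 19 genes for electron carriers and coenzyme Q synthesis, 5 had a Bio-Myc peak (26.3%, 11.8 to 48.8%), among them Coq9 (224) and Pdss1 (170), and 9 had a Max peak. The gene of cytochrome c, Cycs, had a Max peak of 170 alone. Of 18 genes of the citric acid cycle and its entry, 7 had a Bio-Myc peak (38.9%, 20.3 to 61.4%) and 14 a Max peak (77.8%), among them Idh3b (226) and Mdh2 (225) for Bio-Myc. The intervals of these lists all overlapped that of the members. Over all protein-coding genes the shares were 14.6% for Bio-Myc and 34.8% for Max, and over those with a CpG-rich promoter 27.0% and 61.5%. Such a promoter was present at 19 of the 28 assembly factors, 12 of the 19 carrier genes and 17 of the 18 cycle genes. For assembly factors and carriers the Bio-Myc shares were thus near the CpG-rich background. The differences were not tested.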

How the data were processed

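ChIP-Seq was performed by the authors for Bio-Myc and Max in E14 ESCs, with a mock and an IgG ChIP as controls. Alignment was to mm9 with Bowtie 0.12.7. A read entered only if it had a single place in the genome at 2 mismatches or fewer, and copies of the same read counted once. Peaks came from MACS 1.4.1 on 1 library per ChIP, each against its control, at a p-value of 1e-08. The deposited lists give for each peak a score, 10 times the negative log10 of its p-value in MACS, not scaled to depth. The depth is not given in the sources used here. Unique mapping leaves out repeated sequence and near-identical gene copies, and the number of peaks at a fixed p-value depends on the number of reads.

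Peaks were set beside GENCODE M1 and the NCBIM37 sequence, which are on the assembly of mm9, with 1-based coordinates and Python 3.11.15, numpy 2.4.6, scipy 1.17.1 and matplotlib 3.10.9. A bound gene had a peak that reached within 1 kb of any TSS by at least 1 bp, and its strongest peak gave its score. A promoter was CpG-rich when 1000 bp around any TSS had an observed to expected CpG of at least 0.6 and a GC content of at least 55%. Subunits were placed in complexes by their known function. No test was run, since there are no replicates. The members and lists were chosen with earlier results of these data known. Named were every member with a Bio-Myc peak, the 5 highest and 5 lowest Max scores among members with Max alone, all of complexes II and III, isoform pairs, members without a peak, and members within 200 bp of the window's limit. A few genes that these rules would name are not reported here. The alternatives were other windows, a stricter p-value, one TSS per gene, peak centres, subunits only, the nearest gene only, equal numbers of peaks, no chromosome 8 and other E-Box rules. The counting steps were tested on simulated data, where 10 of 10 gave the known answer.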

Additional observations from a re-analysis of the deposited data

How the results depend on the processing

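Of 103 alternative values, 89 stayed within 1.5 times the value reported, or for the distance within its spread, and 14 moved further. With the p-value limit set to 1e-15, the members with a Bio-Myc peak numbered 11, those with a Max peak 32 and those with both 10, beside 6.85%, 22.6% and 5.85% of all protein-coding genes. Complex I then had 3 Bio-Myc and 7 Max genes, complex III 0 and 2, complex IV 2 and 4, and complex V 5 and 12. Fewer peaks enter at this limit by construction. With as many Max peaks as Bio-Myc peaks, 22 members had a Max peak and 15 had both, beside 15.5% and 8.33% of all genes. Without the tissue forms, which leaves 11 genes of complex IV, 5 had a Max peak. This count moved, but the share was 45.5%, beside 44.4% with the tissue forms. A Bio-Myc peak was found at 4 of the 11 (36.4%), beside 27.8% with the tissue forms. This alternative was added after the data were seen, as were the CpG-rich promoters. With CACGCG counted beside CACGTG, 23 of the 35 Bio-Myc peaks held a match (65.7%, 49.2 to 79.2%), beside 78.0% of those of all protein-coding genes. In complex V the Bio-Myc count was 11 with the outermost TSS alone and 12 under the other windows. No paired analysis was possible because each ChIP has 1 library. The depth of the libraries is unknown, so a member without a peak may lie below the limit of detection of its list, and the lists cannot be compared by score.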

Other observations

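The members without a peak within 1 kb differed widely in their distance to the next one. The nearest Max peak to Cox7b, which had a Bio-Myc peak at its TSS on the X chromosome, lay 1796578 bp away. Cox7c had its nearest Bio-Myc peak at 3692347 bp and its nearest Max peak at 756511 bp. By contrast, Ndufb10, which had Max alone, lay 1906 bp from a Bio-Myc peak with a score of 465, and Cox8b, which had neither, lay 2461 bp from a Max peak with a score of 164. These genes were chosen after their values were seen.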
